A study of Mus musculus with 16 samples.

Results

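The difference between the transforming growth factor β1 (TGF-β1) responses of macrophages with and without an intact Smad7 gene was examined gene by gene. The quantity is the KO response minus the fl/fl response, each response being the log2 ratio of TGF-β1 to untreated libraries, so a negative value means a smaller rise or a steeper fall in KO cells. It draws on all 16 libraries of the series and was computed a second time from 15, without the library labelled KO untreated replicate 1. Bone marrow macrophages came from C57BL/6 mice of 2 genotypes: Smad7 fl/fl, the control, and CAGGCre-ER;Smad7 fl/fl, called KO here. In KO mice a tamoxifen-activated Cre under the ubiquitous CAGG promoter is meant to delete the floxed alleles in the whole animal. Both genotypes received tamoxifen at 20 mg/kg for 5 days at 1 month of age, and marrow was taken 2 weeks later. Adherent macrophages were grown with CSF-1 and 15% serum, kept serum-free for about 12 hours, and then kept without or with 10 ng/ml TGF-β1 over 4 hours, which gives 4 groups of 4 libraries. The labels do not say whether the libraries of a group came from separate animals, so the p-values measure the spread between these libraries, which may be technical.

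TGF-β1 acts through a pair of receptor kinases that phosphorylate Smad2 and Smad3, which join Smad4 and activate target genes. Smad7 and Smad6 are inhibitory Smads: they are induced by the pathway, bind the activated receptors and recruit ubiquitin ligases such as the Smurf proteins, and so form a negative feedback loop. In macrophages TGF-β restrains inflammatory genes and supports the gene programme of tissue-resident cells. The comparison asks whether losing Smad7 changes which genes TGF-β1 moves at this time point and by how much.

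Total counts per library ran from 16865591 to 23741079. All 8 macrophage markers were present, with summed levels of 7807 to 10740 CPM (counts scaled to a common library total), while lists for the 10 other cell types of marrow cultures never exceeded 22.2 CPM in any library. The library labelled KO untreated replicate 1 resembled treated ones: Pmepa1, a membrane protein that dampens TGF-β signalling, was at 319.9 CPM in it and at 1.70, 2.66 and 2.73 CPM in the other KO untreated libraries. Further libraries stood partly apart from their groups, namely fl/fl TGF-β1 replicate 4 (14915 genes with a count, mitochondrial share 0.575%, against 15834 to 17195 genes and 1.20% to 2.71% in all others), KO untreated replicate 2 and KO TGF-β1 replicate 1. Values without them are given for some of the results that they alter. Gm6969, a predicted gene named after its values were seen, was at 27.1 to 41.1 CPM in fl/fl replicates 3 and 4 and KO replicates 1 and 2, untreated and treated, and at 0.0582 to 0.315 CPM in all other libraries. Libraries of a genotype thus fell into 2 sets by replicate number that crossed treatment, and the source of that split was not tested. Yam1 and Lars2, also named after their values were seen, were high in fl/fl TGF-β1 replicates 1 to 3. Yam1 was at 22530, 41600 and 26460 CPM there, 8976 CPM in replicate 4, 3238 to 9802 CPM in untreated and 372 to 6617 CPM in KO treated libraries. Lars2 was at 4221, 7647, 4286 and 1724 CPM, against 877 to 1760 CPM and 68.3 to 1223 CPM. The source of this shift was not tested.

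No gene passed the threshold of an adjusted p under 0.05 for a difference in response, with or without KO untreated replicate 1. Among 13080 genes tested in 16 libraries 0 were called (0%) and 275 had an unadjusted p under 0.05 (2.10%), with a smallest adjusted p of 0.993 by edgeR's quasi-likelihood test. Among 13335 genes in 15 libraries 0 were called (0%) and 267 had an unadjusted p under 0.05 (2.00%), with a smallest adjusted p of 0.981. Both shares lie under the 5% that chance alone would give, so these fits, which ignore replicate number, may miss differences. The reason for the low shares was not tested. DESeq2 called 1 gene in 16 libraries and 0 in 15. That gene was Bnc2, a zinc finger protein, at 0 counts in all fl/fl untreated libraries and in KO untreated replicates 2 to 4, at 3.63 CPM in KO untreated replicate 1 and at 1.34 to 3.75 CPM in the treated libraries of both genotypes. With treated and untreated libraries of the same genotype and number as a replicate block, the 15-library edgeR fit again called 0 genes. However, 1105 of the 13335 genes had an unadjusted p under 0.05 in it and the smallest adjusted p was 0.576.

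A missed threshold does not show that responses are alike, so the 95% interval of each difference was used: responses were counted as alike where the whole interval lay within 2-fold, that is between -1 and 1 on the log2 scale. In 15 libraries 3356 genes responded to TGF-β1 on average over both genotypes (25.2% of those tested), 1674 higher (12.6%) and 1682 lower (12.6%). The interval lay within 2-fold for 2550 of them, or 76.0%, against 65.3% of all genes tested, and within 1.5-fold for 1522, or 45.4%. A gene with a small error is more readily called as responding and also has a narrower interval. The higher share therefore does not show that responding genes were more alike. Of the responding genes not within 2-fold, 765 had an interval that reached past 2-fold and still included 0. These data show neither a difference nor likeness for them. Of the 314 genes that responded by at least 4-fold on average, 93 lay within 2-fold, so likeness was not shown for most steep responders. The estimate was smaller in KO cells for 49.1% of responding genes, and among the 69 with an unadjusted p under 0.05 it was smaller in KO for 31 and larger for 38.

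With KO untreated replicate 1 included the same table leaned one way. Of 2801 responding genes (21.4%), 1796 lay within 2-fold (64.1%, against 65.1% of all genes tested), and the KO response was the smaller for 82.3%. Among the 98 with an unadjusted p under 0.05 the KO response was smaller for 97 and larger for 1. Genes that rose at least 4-fold on average had a median response of 3.38 in fl/fl and 1.84 in KO cells, whereas without that library the medians were 2.58 and 2.88. For genes that fell at least 4-fold the medians were -2.59 and -2.30 with the library and -2.48 and -2.53 without it. With the library, 1 of the 184 genes that responded by at least 4-fold on average lay within 2-fold. All values below are from the 15 libraries unless 16 are named.

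**Figure D1:**
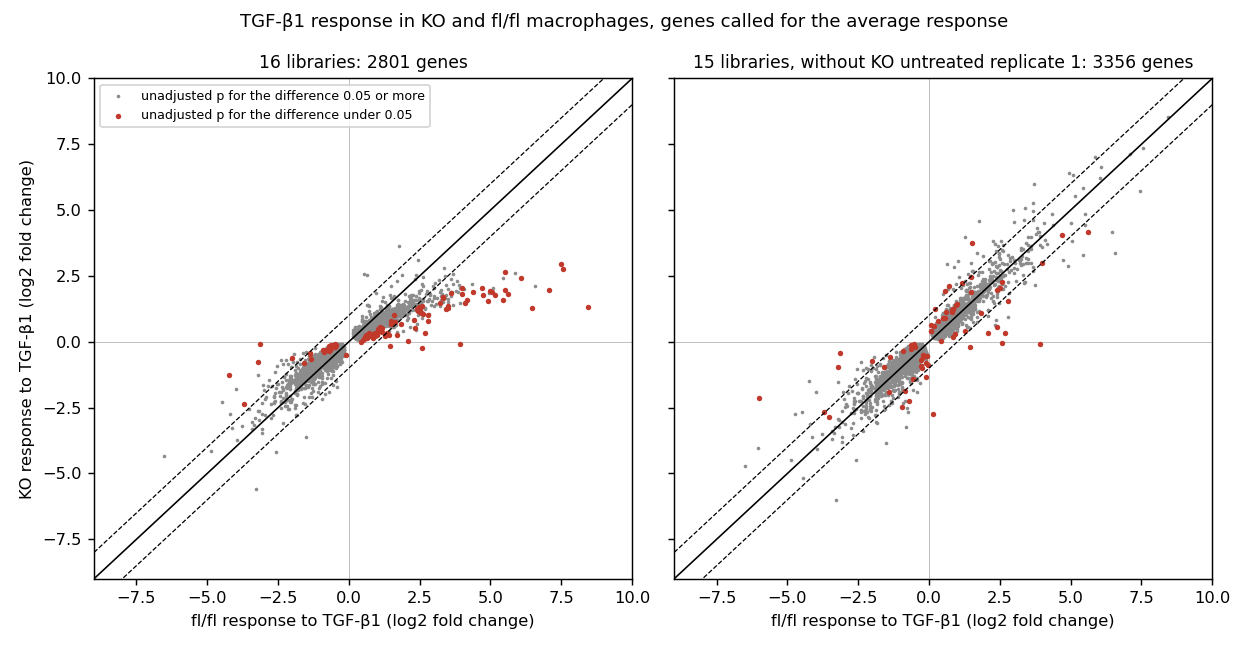
Log2 response to TGF-β1 in KO macrophages (vertical axis) against fl/fl macrophages (horizontal axis) for the genes called for the average response, 2801 in 16 libraries (left) and 3356 in 15 libraries (right). Each point is a gene, red where the unadjusted p for the difference is under 0.05; the solid line marks equal responses and the dashed lines a 2-fold difference. Points on the left bend below the line for rising genes, and on the right they lie along it.

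The steepest risers responded in both genotypes. Pmepa1 was at 2.99, 3.09, 2.43 and 2.61 CPM in fl/fl untreated libraries and at 355, 347, 381 and 419 CPM with TGF-β1; in KO it went from 1.70, 2.66 and 2.73 CPM (replicates 2 to 4) to 292, 343, 332 and 327 CPM. Treated and untreated libraries did not overlap in either genotype, KO untreated replicate 1 aside. Its response was 7.08 ± 0.15 (SE) in fl/fl and 7.12 ± 0.17 in KO, with a difference of 0.04 (95% interval -0.39 to 0.46). Spsb1, a SOCS box adaptor that limits TGF-β receptor signalling, rose by 5.14 ± 0.15 in fl/fl and 5.55 ± 0.18 in KO, and this difference of 0.41 (-0.04 to 0.86) also lay within 2-fold. For 5 others of the steepest risers the estimates were less certain. Those were the repressor Hes1 (difference 1.15), the protease Prss46 (1.25), the thrombin receptor F2r (1.47), the transmembrane protein Tmeff1 (0.39) and the inhibitor of DNA binding Id3 (-0.65). Each of these 5 intervals included 0 and extended past 2-fold. Several of them were almost silent without TGF-β1: Hes1 lay between 0 and 0.217 CPM in all untreated libraries but KO replicate 1, which limits any comparison of its fold changes.

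Several of the steepest falls were alike within 2-fold. Ednrb, an endothelin receptor, was at 172, 161, 143 and 167 CPM in fl/fl untreated libraries and at 11.0, 11.4, 10.0 and 9.54 CPM with TGF-β1. In KO it went from 274, 132 and 152 CPM in replicates 2 to 4 to 6.02, 14.4, 10.9 and 11.8 CPM. The groups of each genotype were far apart and the 2 genotypes overlapped in both states. Its response was -3.94 ± 0.24 in fl/fl and -4.07 ± 0.24 in KO, a difference of -0.13 (-0.80 to 0.54). The iron exporter Slc40a1 fell by 3.31 and 3.23 on the log2 scale (difference 0.08, -0.47 to 0.63). The orphan receptor Gprc5c (difference 0.06, -0.60 to 0.72) also lay within 2-fold. Without KO untreated replicate 2 the Ednrb difference was 0.25, and without fl/fl TGF-β1 replicate 4 that of Gprc5c was 0.43. Pcdha10, a protocadherin whose cluster shares exons and whose counts are therefore uncertain, differed by -0.05 (-1.01 to 0.91), and the glycosyltransferase B3gnt5 by -0.55 (-2.76 to 1.66). KO untreated replicate 2 held 19.8 CPM of B3gnt5 against 2.08 and 3.47 CPM in replicates 3 and 4, and without it the B3gnt5 difference became 1.03. Estimates nearer to 0 in KO cells were seen for the aryl hydrocarbon receptor Ahr, at -2.86 ± 0.23 against -3.54 ± 0.23, and for Sema6d, a semaphorin, at -2.65 ± 0.30 against -3.71 ± 0.32. Their differences of 0.68 (0.00 to 1.36) and 1.06 (0.14 to 1.99) had unadjusted p of 0.0481 and 0.0262 by edgeR and an adjusted p of 0.981 each. In the 12 libraries without the 4 that stood apart the differences were 0.91 for Ahr and 0.66 for Sema6d.

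**Figure D2:**
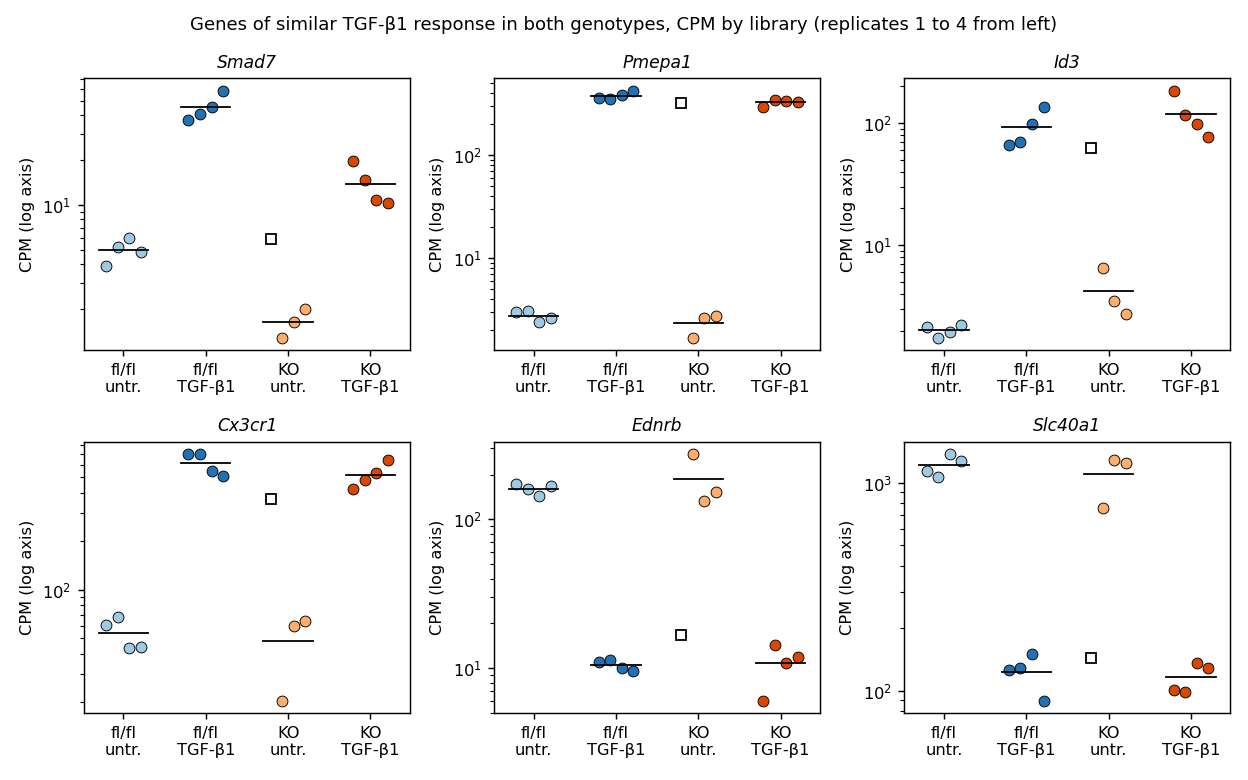
CPM on a log axis in every library for Smad7, 2 rising feedback and target genes, the fractalkine receptor Cx3cr1 and the falling genes Ednrb and Slc40a1. Points are libraries, replicates 1 to 4 from left in each group; the open square is KO untreated replicate 1, and lines are group means without it. The step from untreated to treated is of similar height in both genotypes by its estimates, though for Id3 the interval of the difference extends past 2-fold. The square sits with the treated libraries for all but Smad7.

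**Figure D3:**
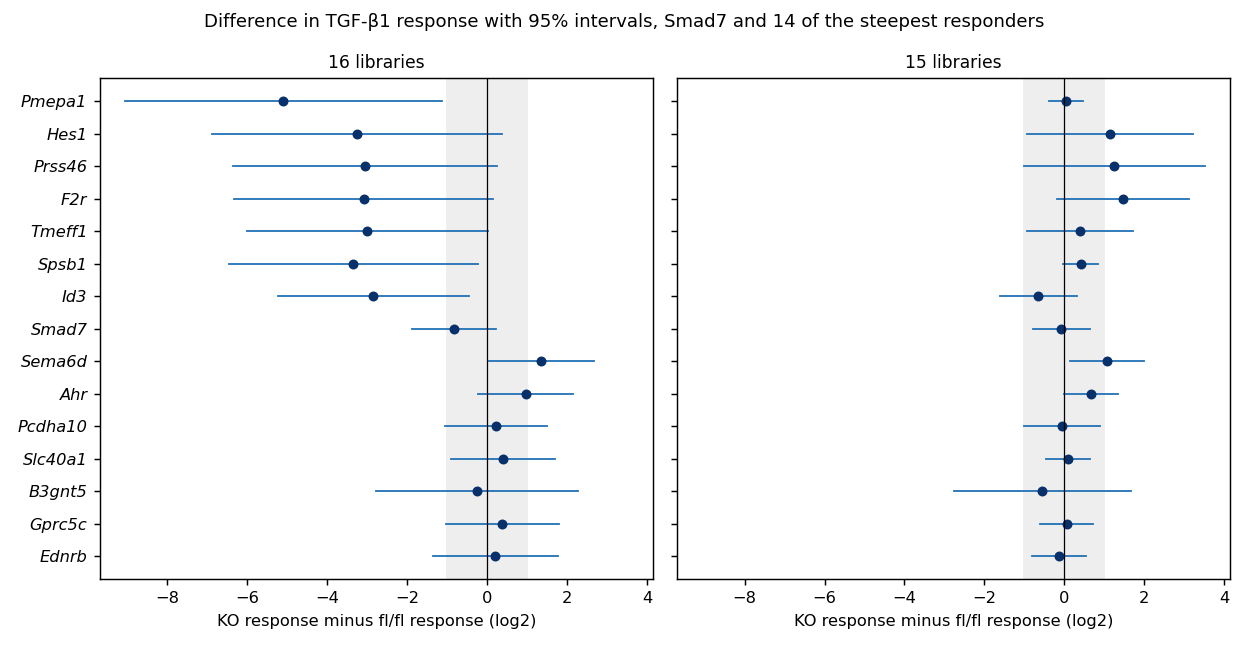
Difference in response (KO minus fl/fl, log2) with its 95% interval for Smad7 and 14 of the steepest responders, from 16 libraries (left) and 15 libraries (right), ordered by average response. The shaded band marks 2-fold. Rising genes lie between -5.10 and -2.85 on the left, Smad7 aside, and from -0.65 to 1.47 on the right.

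Smad7 itself responded by a similar factor in both genotypes from different starting levels. It was at 3.89, 5.24, 6.03 and 4.80 CPM in fl/fl untreated and 37.3, 40.9, 45.6 and 58.3 CPM in fl/fl treated libraries. In KO untreated replicates 2 to 4 it was at 1.28, 1.64 and 2.00 CPM, and in KO treated libraries at 19.7, 14.8, 10.8 and 10.3 CPM, so each KO group lay wholly below its fl/fl counterpart. The responses were 3.18 ± 0.22 and 3.11 ± 0.27, and the difference was -0.07 (-0.79 to 0.64). The genotype gap was -1.63 without and -1.70 with TGF-β1, both called by edgeR (adjusted p = 0.0307 and 8.28e-04). With 16 libraries neither gap was called (-0.89, adjusted p = 0.423, and -1.71, adjusted p = 0.122, by edgeR), and the difference in response was -0.83 (-1.88 to 0.22). Counts over the whole gene do not show which exons were transcribed, and in bulk RNA fewer expressing cells and less RNA per cell cannot be told apart. Smad7 RNA was found in every KO library, so these counts do not tell how complete the deletion was.

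Among Smad2/3 targets and feedback genes most responding members lay within 2-fold in 15 libraries, as did most responding genes of any kind. Of 28 listed genes 26 were tested, of which TGF-β1 raised 16 and lowered 3, with 7 short of the threshold. Among the 19 that responded, 16 had an interval within 2-fold. For comparison with this and the later lists, 65.3% of all genes tested and 76.0% of all responding genes lay within 2-fold. Of all genes tested, 12.6% were higher and 12.6% lower. The median difference of the list was -0.01, with members from -2.03 to 0.86, against a median of 0.03 over all genes tested. With 16 libraries it was -0.31 against -0.01, with 9 responding members within 2-fold. Cdkn1a, the p21 cell cycle inhibitor, fell by 0.57 in fl/fl and 0.65 in KO on the log2 scale (difference -0.08, -0.41 to 0.24). Jun, an AP-1 subunit that did not pass for the average response, had an interval that just included 0 (difference 0.32, -0.01 to 0.66). Tgif2, a Smad co-repressor of low level named after its values were seen, was the 1 member with an unadjusted p under 0.05 (difference -2.03, -3.74 to -0.32, edgeR adjusted p = 0.981).

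BMP/Smad1/5 targets were the list least well resolved. All 7 tested members of 12 rose, and 1 of the 7 lay within 2-fold. Their median difference was 0.84 in 15 libraries and -0.18 in 16, so its sign rests on KO untreated replicate 1. In 15 libraries 5 of the 7 had a positive difference, and Smad6 and Id3, described next, were the negative ones. Smad6, the other inhibitory Smad, was at 2.81, 1.57, 3.52 and 1.98 CPM in fl/fl untreated and 64.1, 57.1, 58.1 and 78.8 CPM in fl/fl treated libraries. In KO replicates 2 to 4 it started at 5.96, 4.03 and 3.05 CPM and reached 73.4, 71.1, 74.0 and 62.7 CPM with TGF-β1. The treated libraries of both genotypes overlapped, and the untreated KO libraries lay above 3 of the 4 fl/fl ones. The rise was 4.69 ± 0.22 in fl/fl and 4.05 ± 0.23 in KO, a difference of -0.64 (-1.27 to -0.01) with an unadjusted p of 0.0453 and an adjusted p of 0.981 by edgeR. It was -0.36 without KO untreated replicate 2. Id3 showed the same arrangement: 1.75 to 2.23 CPM in fl/fl and 6.47, 3.50 and 2.73 CPM in KO untreated libraries, against 65.9 to 135 CPM and 77.6 to 184 CPM with TGF-β1.

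Smad proteins bind short DNA elements, the best known being GTCTAGAC, a palindrome, and its shorter relative CAGAC. Promoters of 61 of the 84 named genes were found in the RefSeq table (GRCm38.p6, 250 bases before to 50 after a start). GTCTAGAC was in those of 2 named genes, Smad6 and Runx3, and in 0.213% of all 32851 promoters of the same length. CAGAC, or GTCTG on the other strand, was in those of 28 named genes and in 49.6% of all promoters. A named gene was counted if any of its listed promoters held the motif, whereas the percentages count promoters, so the figures are not like for like. A promoter holding the palindrome is printed below for Smad6 and for Runx3. Runx3 has 2 listed promoters, and the printed one lies inside the gene (chromosome 4, 135120652 to 135177990). Also printed are that of Id3, a riser, and that of Vdr, the gene for the vitamin D receptor. The Vdr response was among those nearest to a difference. Capitals mark GTCTAGAC and CAGAC or GTCTG, and the 2 motifs do not overlap in these 4 sequences. A match describes the letters and does not show a bound site.
Smad6, chr9:64022010-64022309, minus strand: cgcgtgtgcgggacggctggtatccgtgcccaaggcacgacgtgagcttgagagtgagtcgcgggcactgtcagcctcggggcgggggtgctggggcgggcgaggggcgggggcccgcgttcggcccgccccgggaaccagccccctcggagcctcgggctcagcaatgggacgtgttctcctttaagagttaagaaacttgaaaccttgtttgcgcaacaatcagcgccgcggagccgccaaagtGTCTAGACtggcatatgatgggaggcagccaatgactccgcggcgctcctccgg
Runx3, chr4:135152295-135152594, plus strand: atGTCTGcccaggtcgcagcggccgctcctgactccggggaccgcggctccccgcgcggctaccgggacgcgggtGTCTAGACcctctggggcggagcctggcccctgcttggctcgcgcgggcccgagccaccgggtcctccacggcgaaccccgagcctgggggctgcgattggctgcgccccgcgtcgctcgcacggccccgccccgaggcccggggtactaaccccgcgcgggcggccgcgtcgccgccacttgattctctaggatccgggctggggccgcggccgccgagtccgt
Id3, chr4:136143572-136143871, plus strand: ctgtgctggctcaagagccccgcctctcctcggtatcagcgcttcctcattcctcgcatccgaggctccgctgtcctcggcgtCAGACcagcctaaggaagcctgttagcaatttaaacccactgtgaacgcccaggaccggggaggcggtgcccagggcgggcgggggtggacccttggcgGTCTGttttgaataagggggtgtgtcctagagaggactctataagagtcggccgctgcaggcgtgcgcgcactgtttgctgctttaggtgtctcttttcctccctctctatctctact
Vdr, chr15:97908247-97908546, minus strand: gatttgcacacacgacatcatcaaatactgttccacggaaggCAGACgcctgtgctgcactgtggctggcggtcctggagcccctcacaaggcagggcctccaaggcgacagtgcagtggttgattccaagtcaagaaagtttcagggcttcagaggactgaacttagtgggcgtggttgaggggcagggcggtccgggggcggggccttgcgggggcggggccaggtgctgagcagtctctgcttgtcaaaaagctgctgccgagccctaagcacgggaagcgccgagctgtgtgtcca
Runx3, a partner transcription factor of Smad proteins, rose by 3.49 ± 0.29 in fl/fl and 3.01 ± 0.32 in KO macrophages, a difference of -0.48 (-1.33 to 0.37).

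Receptors responded in both directions. Of 11 tested TGF-β1 raised 3 and lowered 3, 8 lay within 2-fold, a share near that of all genes tested (65.3%), and the median difference was 0.23. Tgfbr1, the type I receptor, rose from 289, 275, 252 and 228 CPM to 943, 1056, 894 and 468 CPM in fl/fl cells, and from 106, 252 and 233 CPM in KO replicates 2 to 4 to 726, 830, 885 and 937 CPM. Treated and untreated libraries did not overlap, and fl/fl TGF-β1 replicate 4 and KO untreated replicate 2 were the lowest of their groups. The responses were 1.68 ± 0.24 and 2.12 ± 0.27 (difference 0.44, -0.29 to 1.18). Tgfbr2, the type II receptor, fell on average, with responses of -0.50 in fl/fl and -0.20 in KO. This difference of 0.30 (0.03 to 0.57) lay within 2-fold while excluding 0 before adjustment. Untreated levels were 259 to 279 CPM in fl/fl and 196 to 199 CPM in KO replicates 2 to 4. With TGF-β1 they were 185 to 197 and 140 to 181 CPM, so the genotypes lay further apart without it. Tgfbr3, the co-receptor betaglycan, fell by 1.55 and 1.46. Of 13 Smads and partner factors tested TGF-β1 raised 2 and lowered 1, and 11 lay within 2-fold. Smad3 fell by 0.73 and 0.69 (difference 0.04, -0.34 to 0.42). Smad1 had a response of -0.44 ± 0.15 in fl/fl and 0.06 ± 0.17 in KO, but did not pass for the average response (difference 0.50, 0.03 to 0.98).

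Among 10 tested ligand and latency genes, 4 were higher and 2 lower, and 6 lay within 2-fold. The integrin subunit Itgav, which helps to release latent TGF-β, rose by 2.17 ± 0.12 and 2.33 ± 0.14 (difference 0.16, -0.20 to 0.53). Nrros, which tethers latent TGF-β1 on myeloid cells, fell by 1.54 and 1.73 (difference -0.19, -0.44 to 0.06). Thbs1, a matrix protein that activates latent TGF-β, carried the most negative value of the list at -2.30 (-4.44 to -0.15). It was at 84.1 to 155 CPM in fl/fl untreated, 98.6 to 161 CPM in fl/fl treated and 99.7 to 136 CPM in KO treated libraries, and at 1643, 112 and 96.3 CPM in KO untreated replicates 2, 3 and 4. The 1643 CPM of replicate 2 stood alone, and without that library the difference was 0.25. Ltbp2, a latent TGF-β binding protein named after its values were seen, also had an unadjusted p under 0.05 (difference 1.10, 0.03 to 2.17).

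Among genes of microglia and resident macrophages the steepest risers had close estimates in both genotypes. Cx3cr1 was at 60.4, 68.3, 43.7 and 43.9 CPM in fl/fl untreated and 697, 697, 551 and 509 CPM in fl/fl treated libraries. In KO it went from 20.4, 59.4 and 63.9 CPM in replicates 2 to 4 to 423, 481, 536 and 643 CPM. Its rise was 3.50 ± 0.28 and 3.46 ± 0.32, a difference of -0.04 (-0.83 to 0.76). The secreted protein Olfml3, another gene of microglia, rose by 3.90 ± 0.20 and 4.01 ± 0.21 (difference 0.11, -0.46 to 0.68). Over the 19 tested microglia and resident macrophage genes 6 were higher and 2 lower, none had an unadjusted p under 0.05 for the difference by edgeR, and 11 lay within 2-fold, a share no higher than that of all genes tested. The haemoglobin scavenger receptor Cd163 fell by 2.60 and 2.23 (difference 0.37, -0.27 to 1.01).

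All type I interferon-stimulated genes that responded fell, 23 of 29 tested, against 12.6% lower among all genes tested. Of the 23, 15 lay within 2-fold, against 76.0% of all responding genes. The antiviral GTPase Mx1 was at 161, 134, 75.5 and 84.9 CPM in fl/fl untreated and 34.8, 21.2, 20.4 and 15.7 CPM in fl/fl treated libraries. In KO it went from 118, 146 and 166 CPM to 13.7, 19.6, 28.0 and 28.8 CPM. The fall was -2.31 ± 0.28 and -2.64 ± 0.29, with a difference of -0.33 (-1.16 to 0.49). The median difference of the list was -0.16, with 20 of 29 members negative, against 0.03 over all genes. In 16 libraries it was 0.04, so the lean to a steeper fall in KO depends on leaving out KO untreated replicate 1. It was -0.12 without KO untreated replicate 2 as well, where 2 of 29 members had a positive difference.

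Of 17 chemokines 11 fell and 2 rose in 15 libraries, 4 lay within 2-fold, so likeness was not shown for most, and the median difference was -0.24. Cxcl10, which attracts T cells, fell by 2.41 and 2.65 (difference -0.25, -1.10 to 0.61), and Cxcl14 rose by 2.28 and 2.68 (difference 0.40, -0.32 to 1.12). Of 22 NF-κB feedback and inflammatory genes 16 fell and 1 rose, with 15 within 2-fold and a median difference of -0.10. Tnip3, an inhibitor of NF-κB signalling, fell by 2.04 and 1.81 (difference 0.22, -0.38 to 0.82). The inflammatory cytokine Il1b fell on average, with responses of -0.63 in fl/fl, which alone did not pass, and -1.58 in KO. Its levels in KO untreated replicates 2 to 4 were 30.4, 11.1 and 10.2 CPM against 4.56 to 12.0 CPM in fl/fl (difference -0.95, -2.06 to 0.17). Of 23 Toll-like receptors and innate sensors 15 fell and 2 rose, and 15 lay within 2-fold, a share near that of all genes tested (65.3%). Tlr2 rose by 0.61 and 0.71 (difference 0.09, -0.44 to 0.63), and the peptidoglycan sensor Nod1 fell by 1.80 and 2.01 (-0.21, -0.90 to 0.48).

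Of 20 cholesterol synthesis genes tested 13 were lower on average over both genotypes, 7 did not pass and none was higher. The estimates leaned towards 0 in KO cells, and all 20 lay within 2-fold. The difference was positive for 18 of 20, where positive values made up 54.4% of all genes tested. The median response was -0.41 in fl/fl and -0.24 in KO, and the median difference 0.24. It was 0.27 in 16 libraries, 0.20 without KO untreated replicate 2 as well, and 0.18 in the 12 libraries left after removing all 4 that stood apart, with 19, 19 and 18 members positive. Idi1, an isomerase of the pathway, had responses of -0.85 in fl/fl and -0.50 in KO (difference 0.35, -0.23 to 0.92). The desaturase Sc5d had responses of -0.49 and -0.11 (difference 0.38, -0.01 to 0.78). The genotype gap, KO minus fl/fl, was -0.37 for Idi1 and -0.45 for Sc5d without TGF-β1. With it the gaps were -0.03 and -0.07. None of the 20 had an unadjusted p under 0.05 by edgeR in 15 libraries and 2 had one in 16. The list was given no test, and its members are known to be driven together by the SREBP factors, so they are not independent.

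The glycolytic enzyme Hk2, hexokinase 2, was the closest match between genotypes among the named risers. It rose from 54.1, 61.3, 53.2 and 47.3 to 338, 301, 282 and 304 CPM in fl/fl, and from 46.7, 46.5 and 45.5 to 226, 257, 264 and 281 CPM in KO cells. Each group was tight and all KO treated libraries lay just below the fl/fl ones. Both responses were 2.50, and the difference was 0.00 (-0.30 to 0.30). In the glycolysis list 5 of 19 were higher, 3 were lower and 18 lay within 2-fold. Integrin β5 (Itgb5) rose by 2.18 and 2.39 (difference 0.21, -0.20 to 0.62). Of the p53 targets 2 of 17 rose and 8 fell, with 15 within 2-fold. Fas, the death receptor, fell by 1.40 in fl/fl and 1.90 in KO, and its difference of -0.49 (-0.97 to -0.02) excluded 0 before adjustment. Scd2, a fatty acid desaturase among the LXR targets, had a response of 0.08 ± 0.16 in fl/fl and 0.64 ± 0.18 in KO (difference 0.55, 0.05 to 1.06). Its untreated levels were 368 to 475 CPM in fl/fl and 242, 284 and 301 CPM in KO replicates 2 to 4. With TGF-β1 they were 356 to 543 and 333 to 553 CPM.

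**Figure D4:**
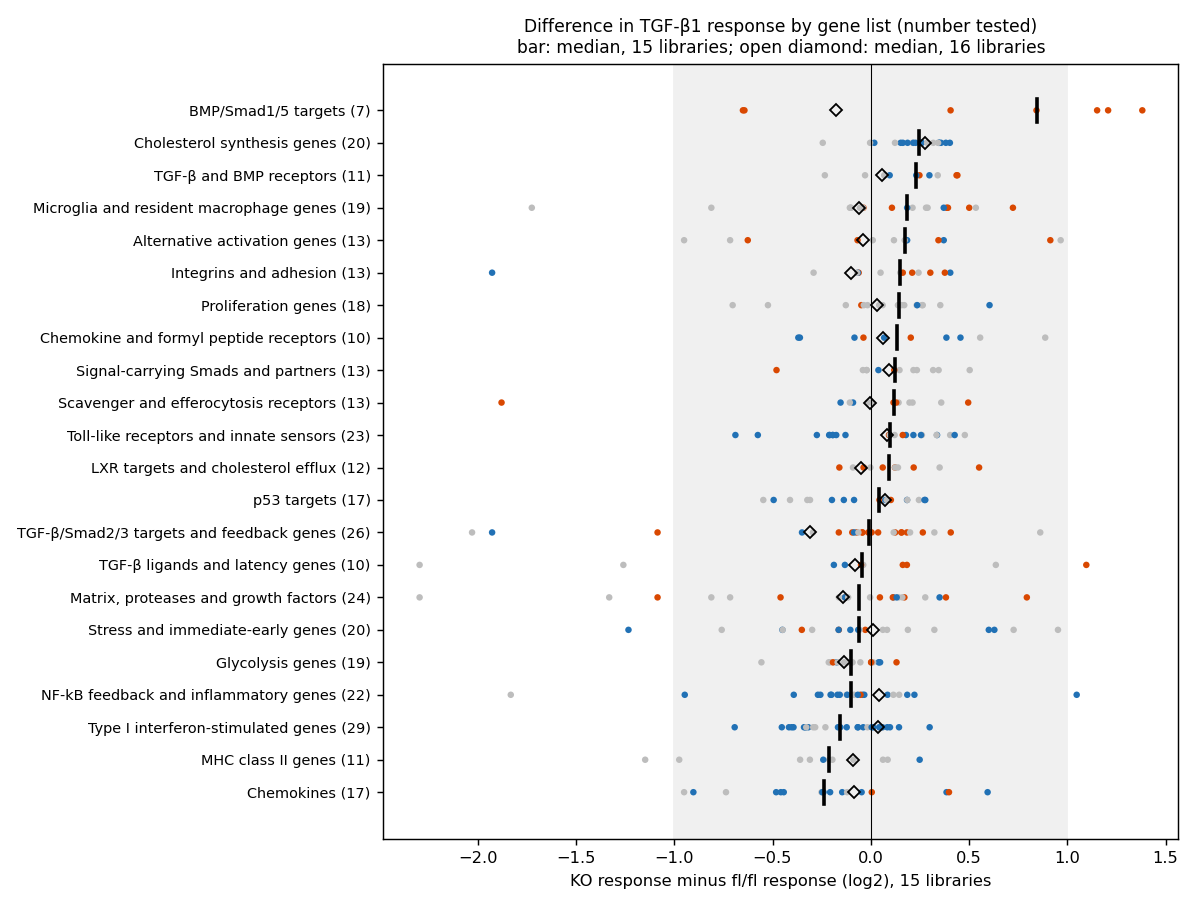
Difference in response (KO minus fl/fl, log2, horizontal axis) of every tested member of the 22 function lists in 15 libraries, one list per row. Points are genes, orange where TGF-β1 raised them on average, blue where it lowered them and grey where the average response was not called; bars are list medians in 15 libraries and open diamonds in 16. The BMP/Smad1/5 targets have the highest median, 0.84, and chemokines the lowest, -0.24, and most members lie inside the shaded 2-fold band.

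The genes nearest to a difference did not pass adjustment, each with an edgeR adjusted p of 0.981, and are given as descriptions since their p chose them. Ccdc107, a coiled-coil protein gene (chromosome 4, 43492900 to 43495921, mm10), had the lowest p among named genes. Strand use in counting is not given, so its counts may include reads from the other strand. It was at 7.90, 6.35, 11.0 and 12.1 CPM in fl/fl untreated and 21.1, 36.5, 23.4 and 21.1 CPM in fl/fl treated libraries. In KO it was at 19.0, 10.4 and 10.5 CPM in untreated replicates 2 to 4 and at 15.5, 8.93, 10.7 and 9.80 CPM with TGF-β1. The fl/fl groups did not overlap, and the KO groups did. The response was 1.44 ± 0.25 in fl/fl and -0.21 ± 0.27 in KO, a difference of -1.65 (-2.43 to -0.87, unadjusted p = 3.29e-04). Here KO untreated replicate 1, at 10.3 CPM, lay with the other KO libraries, and the 16-library difference was -1.60. DESeq2 gave it an adjusted p of 0.151. Leaving out any 1 library moved the difference between -1.85 and -1.31.

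Vdr (chromosome 15, 97854425 to 97910630, mm10) encodes the vitamin D receptor, a nuclear receptor of macrophages. It was at 0.897, 0.699, 1.52 and 1.30 CPM in fl/fl untreated and 6.37, 7.11, 8.85 and 9.23 CPM in fl/fl treated libraries. In KO it went from 3.39, 1.77 and 2.21 CPM to 6.78, 6.92, 7.35 and 7.25 CPM. Treated levels overlapped, while all 3 KO untreated values lay above all 4 fl/fl ones. The rise was 2.80 ± 0.26 in fl/fl and 1.56 ± 0.26 in KO, a difference of -1.24 (-1.99 to -0.49, unadjusted p = 0.0027 by edgeR). Without KO untreated replicate 2 it was -0.95.

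For Psd3, an exchange factor for Arf6, and Nav2, a cytoskeletal regulator, the genotypes lay further apart without TGF-β1 than with it. Psd3 was at 61.9, 60.0, 64.0 and 63.4 CPM in fl/fl untreated and 37.3, 45.6 and 51.5 CPM in KO untreated replicates 2 to 4, and at 18.4 to 22.9 and 18.6 to 28.6 CPM with TGF-β1. It fell by 1.60 in fl/fl and 0.95 in KO (difference 0.65, 0.23 to 1.07). Nav2 was at 126 to 145 CPM in fl/fl and 60.8 to 77.5 CPM in KO untreated libraries, and at 248 to 287 and 168 to 203 CPM with TGF-β1, with no overlap between genotypes in either state. The genotype gap of Nav2 was -0.95 without TGF-β1 (edgeR adjusted p = 7.13e-04) and -0.50 with it (adjusted p = 0.119), and its rise was 0.96 in fl/fl and 1.40 in KO (difference 0.44, 0.13 to 0.76). With KO untreated replicate 1 included the untreated gap of Nav2 was -0.53 and not called (edgeR adjusted p = 0.421), and its difference in response was 0.01. Vash2, a tubulin-modifying vasohibin, was likewise lower in KO untreated libraries, at 1.82 to 2.67 against 5.30 to 7.07 CPM. Its responses were 0.21 ± 0.22 and 1.24 ± 0.26 (difference 1.03, 0.32 to 1.73).

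The DNA methyltransferase gene Dnmt3b moved in opposite directions by its estimates, -0.51 ± 0.18 in fl/fl and 0.49 ± 0.19 in KO, and did not pass for the average response. It was at 6.64, 4.60, 6.34 and 6.56 CPM in fl/fl untreated and 3.70, 4.70, 3.66 and 4.95 CPM in fl/fl treated libraries. The KO libraries held 3.85, 4.25 and 4.57 CPM untreated and 6.13, 5.59, 5.81 and 5.68 CPM treated. KO groups did not overlap, and the fl/fl groups did through 1 low untreated library (difference 1.00, 0.45 to 1.54). The others of positive sign were Wipf2, which acts in actin assembly (0.35), and Fitm2, a protein of lipid droplet formation (0.94). Those of negative sign were the zinc finger gene Zfp341 (-0.89), the single-stranded DNA binding protein gene Nabp2 (-0.70), the kinesin gene Kif5a (-1.13) and the Notch ligand gene Jag2 (-1.60). Jag2 was at 7.29 CPM in KO untreated replicate 2 against 2.35 and 2.89 CPM in replicates 3 and 4, and without it the difference was -0.94. Nabp2 moved to -0.50 without the same library. Kif5a is a gene of neurons: a set of 14 genes of neural tissue, chosen after values were seen, summed to 9.09, 10.3, 9.64 and 19.4 CPM in fl/fl untreated, 19.6 to 31.0 CPM in fl/fl treated, 17.5 to 22.9 CPM in KO untreated and 7.64 to 22.2 CPM in KO treated libraries. Of these 14 genes, all of low level, 12 were tested, and none had a positive difference, against 54.4% of all genes tested in 15 libraries. Their median difference was -1.58 in 15 libraries and -1.76 in 16. By edgeR 3 and 6 of the 12 had an unadjusted p under 0.05, against 2.00% and 2.10% of all genes tested, and none was called. As the set was chosen after values were seen, these counts are descriptions. The part of these genes in the Kif5a value was not tested.

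**Figure D5:**
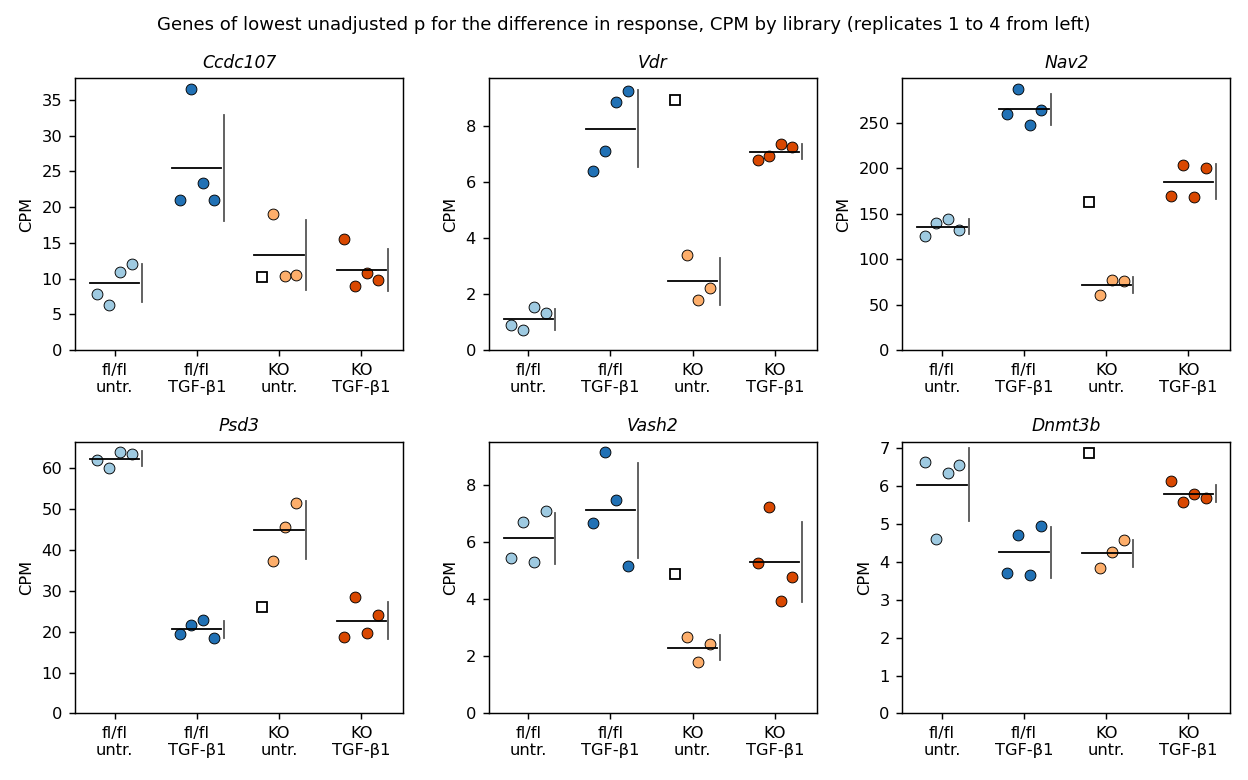
CPM (linear axis from 0) in every library for 6 of the genes of lowest unadjusted p for the difference. Points are libraries, replicates 1 to 4 from left, the open square is KO untreated replicate 1, horizontal lines are group means and vertical lines the mean ± SD without it. Ccdc107 steps up in fl/fl and its KO groups overlap, Vdr, Nav2 and Psd3 start from different untreated levels, and the square lies near the KO treated libraries for Vdr, Nav2, Psd3 and Vash2.

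Precision set what could be told. The median half-width of the 95% interval was 1.45-fold over all genes tested, 1.29-fold for the 5256 genes whose mean level reached a log2 CPM of 5 and 3.65-fold for the 2636 under 1. The number of genes with an unadjusted p under 0.05 in 15 libraries changed from 267 to 589 without KO TGF-β1 replicate 1, 547 without KO untreated replicate 4, 462 without KO untreated replicate 3, 417 without fl/fl TGF-β1 replicate 2 and 177 without KO TGF-β1 replicate 2. In 16 libraries it changed from 275 to 525, 482 and 419 without the first 3 of these in turn. No gene was called by edgeR in any of these fits.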

How the data were processed

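RNA-seq of 16 libraries in 4 groups of 4 was used. Reads were aligned and quantified by the authors with TopHat2 2.0.9, Cufflinks 2.1.1 and HTSeq 0.6.1 against mm10 (GRCm38.p6), per the submitters' processing notes, which give no role for each tool. Strand use in counting is not given in the sources used here. One deposited gene table holds raw read counts, which were tested, and another holds FPKM values made by the authors, used in alternatives only as log2(FPKM + 1) and log2(FPKM + 0.1).

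Genes passing edgeR's filterByExpr were fitted with edgeR 4.0.16 (R 4.3.3; TMM scaling, robust quasi-likelihood F-test, one mean per group). The contrast was (KO TGF-β1 minus KO untreated) minus (fl/fl TGF-β1 minus fl/fl untreated), two-sided, with Benjamini-Hochberg adjustment over all genes tested and a threshold of 0.05. Intervals (95%) came from the fitted coefficient and its F statistic. CPM are counts divided by the TMM-scaled library total, not per gene length, so levels are compared within a gene. The code was tested on simulated data. Alternatives were DESeq2 1.42.0, RLE scaling, limma 3.58.1 (voom with quality weights, and FPKM), other filters, non-robust estimation, replicate blocks and leaving out libraries. The alternatives with 12 or 14 libraries were chosen after seeing the data.

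The replicate numbers come from the sample titles. In 15 libraries the deviations of same-numbered untreated and treated libraries correlated by 0.123 to 0.225 in all 7 pairs within a genotype. They were taken as pairs in the blocked alternative. The same-numbered library was the best match for fl/fl pairs 2 and 4 and KO pairs 3 and 4. It was not for fl/fl pairs 1 and 3 and KO pair 2, so the pairing was not settled. With 16 libraries the correlations of KO pairs 1 and 2 were 0.0755 and 0.0816.

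The genes and lists were chosen with earlier results of these data known. Named were Smad7, the 6 lowest unadjusted p for the difference in each direction with the same sign in both fits, the 8 highest and 8 lowest average responses (characterised genes with average log2 CPM of at least 1), and from each of 22 function lists the called members with the highest and lowest response and the member with the lowest p for the difference. Some genes that meet this rule are not reported here. Promoter sequences are from RefSeq.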

Additional observations from a re-analysis of the deposited data

Results flagged for a closer look

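The 21 genes and library measures described by library were examined in 96 groups of 4 libraries for a single library far from the other 3, by the gap to its neighbour as a share of the group's range. Of these groups 16 were marked. Chance alone would mark about 5% of groups not chosen by their values. These genes were chosen from these data by their response or p, so the count cannot be set against that share. In KO untreated replicate 1 there were 7: Smad7 (5.87 against 1.28 to 2.00 CPM, gap 0.845), Nav2 (163 against 60.8 to 77.5 CPM, gap 0.836), Pmepa1 (319.9 against 1.70 to 2.73 CPM, gap 0.997), Hes1 (5.68 against 0.0443 to 0.105 CPM, gap 0.989), Prss46 (4.11 against 0 to 0.158 CPM, gap 0.962), F2r (13.6 against 0 to 0.354 CPM, gap 0.974) and Gprc5c, which was low (10.3 against 78.0 to 83.1 CPM, gap 0.929). In KO untreated replicate 2, Ccdc107 (19.0 against 10.3 to 10.4 CPM, gap 0.979), Jag2 (7.29 against 2.35 to 2.89 CPM, gap 0.89) and B3gnt5 (19.8 against 1.48 to 3.47 CPM, gap 0.892) were high. Kif5a was high in KO untreated replicate 3 (7.93 against 5.09 to 5.41 CPM, gap 0.886).

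Among fl/fl libraries, Dnmt3b was low in untreated replicate 2 (4.60 against 6.34 to 6.64 CPM, gap 0.852) and Ccdc107 was high in TGF-β1 replicate 2 (36.5 against 21.1 to 23.4 CPM, gap 0.847). Gprc5c was high in TGF-β1 replicate 4 (13.8 against 5.34 to 6.73 CPM, gap 0.835), whose median absolute log2 deviation over genes was 0.385 against 0.175 to 0.208 (gap 0.841). The summed level of the neural genes was high in fl/fl untreated replicate 4 (19.4 against 9.09 to 10.3 CPM, gap 0.887).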

How the results depend on the processing

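No gene was called for the difference in any of 26 alternative or main settings with 15 libraries, nor in 26 of 27 with 16, the exception being DESeq2, which called 1 gene (Bnc2, adjusted p = 1.64e-11, an estimate set by libraries at 0 counts). Leaving out each library kept the count at 0, with a lowest adjusted p of 0.634 (15 libraries) and 0.419 (16 libraries), both without fl/fl TGF-β1 replicate 4. The replicate block within genotype, which takes same-numbered libraries as pairs, called 0 genes. It gave 1105 (15 libraries) and 391 (16 libraries) at an unadjusted p under 0.05. Under it 3676 and 2890 genes responded, of which 2864 and 1992 lay within 2-fold, and no named gene was called for the difference. A block on the number alone gave 199 and 229. The unadjusted count also moved to 793 and 743 with voom quality weights, 701 and 765 without a filter on low counts and 642 in 12 libraries. The number of responding genes within 2-fold was 3949 (15 libraries) and 3921 (16 libraries) with voom quality weights, which called more responding genes, and 3517 in 12 libraries. Leaving out each library gave 2184 to 2928 (15 libraries) and 1298 to 2550 (16 libraries). For the 84 named genes no alternative gave a call, and 90 of 2184 values (15 libraries) and 145 of 2268 (16 libraries) moved by more than 1 SE. Depth limits low genes: intervals under a log2 CPM of 1 had a median half-width of 3.65-fold.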
